A study of Mus musculus with 460 samples.

Results

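The cells described here are 90 Decorin-high fibroblasts with low actin, taken from 460 single cells (19.6%, exact Clopper-Pearson 95% interval 16.04 to 23.5%). A cell belonged to the set if it held at least as many counts of Pdgfra, a fibroblast receptor for platelet-derived growth factor, as of Rgs5, a pericyte gene, and had less than 1000 CPM of Acta2 (smooth muscle actin) and at least 500 CPM of Dcn (decorin). CPM is a gene's count divided by the total count of its cell and multiplied by 1000000. All 460 cells were labelled as cancer-associated fibroblasts (CAFs) of a mouse strain with lung adenocarcinoma, in 1 group with no treatment, age or animal named. The source is given as tCAFs, and the prefix is not explained in the labels. The series title names CAF heterogeneity and cues from cancer cells as its subject. With no animal named the cells count as 1 sample, so no test between conditions was possible, and intervals cover only the error of counting.

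Fibroblasts make and remodel the matrix between cells, and in tumours they range from contractile cells rich in smooth muscle actin to cells that secrete matrix, growth factors and immune signals. Decorin is a small leucine-rich proteoglycan that binds collagen fibrils and growth factors. C3 is the central component of complement, the cascade of serum proteins that tags targets and releases inflammatory fragments, and stromal cells can make it locally.

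The 90 Decorin-high cells held 34206 to 216122 molecular barcode counts (median 88970), in which 7774 genes were detected and 2.10% of counts were mitochondrial at the median. One count in a cell of median depth corresponds to 11.2 CPM. The other cells with at least as many Pdgfra as Rgs5 counts had a median of 100609 counts. They were the 79 high-actin cells (Acta2 at or above 1000 CPM) and the 88 Decorin-low cells (Acta2 below 1000 CPM and Dcn below 500 CPM), with medians of 99997 and 101755 counts. The columns of the table fell into stretches with and without Sftpc, a surfactant gene of alveolar epithelium, and 27.6% of all cells lay in stretches low in it. Of the Decorin-high cells 18 lay there, against 45 of the other Pdgfra cells (26.9%). What these stretches are is not given in the labels, and their part in the results was not tested other than by the values within each of them. Doublets were kept. No 2 cells had identical columns.

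**Figure D1:**
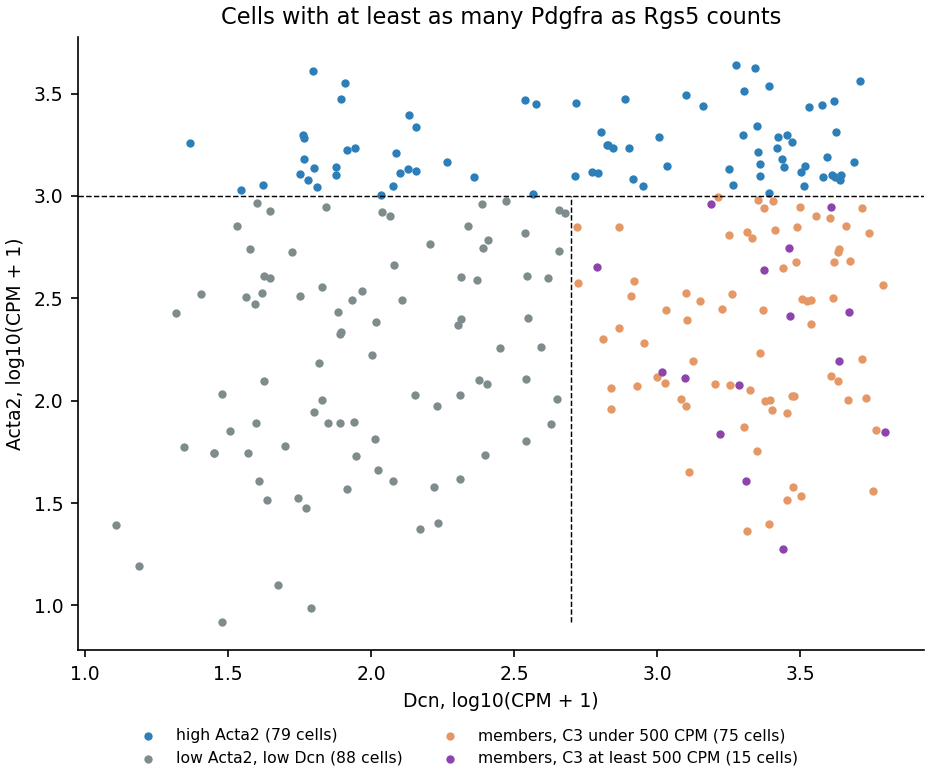
Each point is 1 of the cells with at least as many Pdgfra as Rgs5 counts, placed by its Dcn level (horizontal axis) and Acta2 level (vertical axis), both as log10(CPM + 1); dashed lines mark the limits of 500 CPM for Dcn and 1000 CPM for Acta2. The 90 Decorin-high cells fill the lower right, and the 15 of them with C3 at or above 500 CPM (purple) are spread among the others.

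The 4 selecting genes chose the cells, so their values are given as a description only. Dcn ranged from 524 to 6275 CPM with a median of 2373. The limits cut through a continuous range of values. The nearest cell below the Dcn limit had 476 CPM. The highest Acta2 of the Decorin-high cells was 991 CPM, with 1030 CPM in the nearest cell beyond the limit. The smallest difference of Pdgfra minus Rgs5 was 7 counts among them, and the nearest cell left out had -1. Of the 79 high-actin cells, 49 (62.03%) also had at least 500 CPM of Dcn, so the 2 sets of cells are separated mainly by Acta2. Among the cells with more Rgs5 than Pdgfra, 17 (8.37%) met both other limits and were not counted as members.

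Of the fibroblast genes that the selection did not use, Col1a1, Col3a1 and Fn1 reached 100 CPM in all 90 Decorin-high cells. Others, such as Dpt, reached it in a minority. Col1a1, a chain of type I collagen, ranged from 950.0 to 8843 CPM with a median of 3322, and its level over the summed counts was 3378 CPM against 2597 in the other Pdgfra cells and 1739.6 in the cells with more Rgs5 than Pdgfra. Col3a1 had a median of 2827 CPM and Fn1, for fibronectin, 7572 CPM, and all 90 cells reached 100 CPM of each. Pdgfrb, shared by fibroblasts and pericytes, was at 2094 CPM, close to the 2169 of the other Pdgfra cells. Thy1 reached 100 CPM in 75 of 90 cells, whereas Fap, a CAF marker, reached it in 0 (level 0.603 CPM). Dpt (dermatopontin), a matrix protein often used with decorin to mark fibroblasts, reached 100 CPM in only 14 of 90 cells, with a median of 0 and a highest value of 1986 CPM. Dpt therefore marked a minority of these cells.

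Compared with the other Pdgfra cells, the Decorin-high cells had higher levels of Apod, Tmem119, Cadm1 and Ntn1 in a minority of cells, higher levels of Cp and Adcy7 in many, and lower levels of Stc1, Peg10, Hilpda and Eogt. Levels below are CPM of the summed counts of a set of cells, and a gene was counted as higher or lower when its ratio was at least 2 or at most 0.5, among genes with at least 10 CPM. The selecting genes were left out. Of 9710 genes, 1.87% were higher and 1.34% were lower, and the median log2 ratio over all of them was -0.05.

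Apod, for the lipid-binding apolipoprotein D, had the highest ratio among the genes selected by the naming rule. That rule asks for a count in at least 50% of cells of the higher set, and genes described from the lists need not meet it. Over the 90 cells it ranged from 0 to 5376 CPM with a median of 9.41, and it reached 100 CPM in 25 of them. In the other Pdgfra cells it ranged from 0 to 415.3 CPM with a median of 0, and 11.4% of them reached 100 CPM. The levels were 257.7 and 28.4 CPM, a ratio of 9.07 (counting interval 8.22 to 10.03). The ranges overlapped, and without the highest cell of each set the ratio was 5.87. With the Acta2 limit set at 500 CPM it was 1.08. The 22 Decorin-high cells with Acta2 between 500 and 1000 CPM held 70% of the Apod counts of all 90.

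Tmem119, a transmembrane protein known from microglia and bone-forming cells, reached 100 CPM in 29 of 90 Decorin-high cells and in 10.8% of the others. Its values ran from 0 to 4764 CPM (median 13.2) against 0 to 556 CPM (median 0), and the ratio of the levels, 246.9 over 35.5 CPM, was 6.95. Cadm1, an adhesion molecule of the immunoglobulin family, had levels of 108.3 and 24.3 CPM (4.45-fold). Ntn1, the guidance factor netrin, had 81.5 and 21.6 CPM (3.77-fold). Both were carried by a minority: Cadm1 reached 100 CPM in 19 and Ntn1 in 22 of the 90 cells, and their highest values were 1511 and 827 CPM.

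Among matrix genes, Lum (lumican, a collagen-binding relative of decorin) was 3.37-fold higher, at 225.3 against 66.8 CPM. It reached 100 CPM in 28 of 90 Decorin-high cells and in 7.19% of the others, although the highest single value, 4734 CPM, was in one of the others. Mfap4, a microfibril-associated protein, was at 185.4 against 59.5 CPM (3.12-fold). Tgm2, a transglutaminase that crosslinks proteins, was at 141.04 against 50.6 CPM (2.79-fold). In the stretches low in Sftpc the ratios of Ntn1 and Lum were 1.71 and 1.86, below 2-fold.

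Cp and Adcy7 differed in their medians as well as in their levels. Cp, for the copper-carrying ferroxidase ceruloplasmin, ranged from 0 to 2545 CPM in the Decorin-high cells with a median of 393.9, and from 0 to 2046 CPM with a median of 90.5 in the others. It reached 100 CPM in 67 of 90 cells and in 47.3% of the other Pdgfra cells, and its levels were 669.5 and 256.2 CPM (2.61-fold, counting interval 2.51 to 2.72). Adcy7, an adenylyl cyclase that makes cyclic AMP, had medians of 90.7 and 15.02 CPM and levels of 137.2 and 51.8 CPM (2.65-fold). The ranges of both genes overlapped between the sets. The other genes described as higher were Fgf1 (a fibroblast growth factor, 3.31-fold), Abca8a (a lipid transporter of the ABC family, 3.22-fold), Thbd (thrombomodulin, 3.06-fold), Rapgef5 (an exchange factor for Rap GTPases, 2.97-fold) and Hps3 (2.81-fold). C3 itself was 3.33-fold higher and is described further on.

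Stc1, Hilpda and Slc2a3, which are known to respond to low oxygen, were lower in the Decorin-high cells. Stc1, the secreted glycoprotein stanniocalcin, had a median of 0 and a highest value of 511 CPM in them, against 11.5 and 3727 CPM in the other Pdgfra cells. It reached 100 CPM in 2 of 90 cells and in 21.6% of the other Pdgfra cells, and its level was 22.4 against 114.8 CPM (5.12-fold lower). Hilpda, a lipid droplet protein induced by hypoxia, was at 30.7 against 89.3 CPM (2.90-fold lower), and Slc2a3, a glucose transporter, at 34.1 against 96.1 CPM (2.82-fold lower). Of the 15 hypoxia and glycolysis genes used, however, only Slc2a3 was past 2-fold, 12 had a ratio below 1, and the median log2 ratio was -0.16.

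Peg10, Plagl1 and Rian were lower as well. Peg10 was at 27.2 against 110.1 CPM (4.04-fold lower), the transcription factor gene Plagl1 at 100.3 against 274.8 CPM (2.74-fold lower) and the non-coding RNA Rian at 34.8 against 86.8 CPM (2.49-fold lower). Eogt, which adds a sugar to secreted and membrane proteins, differed in most cells: its medians were 75.04 and 186.3 CPM, it reached 100 CPM in 34 of 90 cells and in 70.1% of the other Pdgfra cells, and its level was 2.81-fold lower. Igfbp3, which binds insulin-like growth factors, was at 39.2 against 116.7 CPM (2.98-fold lower), and Fbn2, a fibrillin of microfibrils, was 2.68-fold lower. Moxd1 and Cobll1 were 2.69-fold and 2.49-fold lower. The ratio of Eogt was 0.524 within the stretches low in Sftpc, and that of Moxd1 was 0.516 outside them.

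Chil3, a chitinase-like gene of lung macrophages, was 2.98-fold lower, but it reached 100 CPM in 5 of the Decorin-high and 5 of the other cells, with a highest value of 4095 CPM in the latter. The summed level of 15 immune markers was 96.6 CPM in the Decorin-high and 198.8 CPM in the other Pdgfra cells, with ranges over the cells of 0 to 672 and 0 to 6111 CPM. Nkg7 and S100a9 had no count in any Decorin-high cell. The 12 endothelial markers summed to 57.1 and 169.8 CPM, with ranges of 0 to 349.8 and 0 to 5591 CPM, and none of them was at 0 in all Decorin-high cells. The part of such cells in these ratios was not tested.

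**Figure D2:**
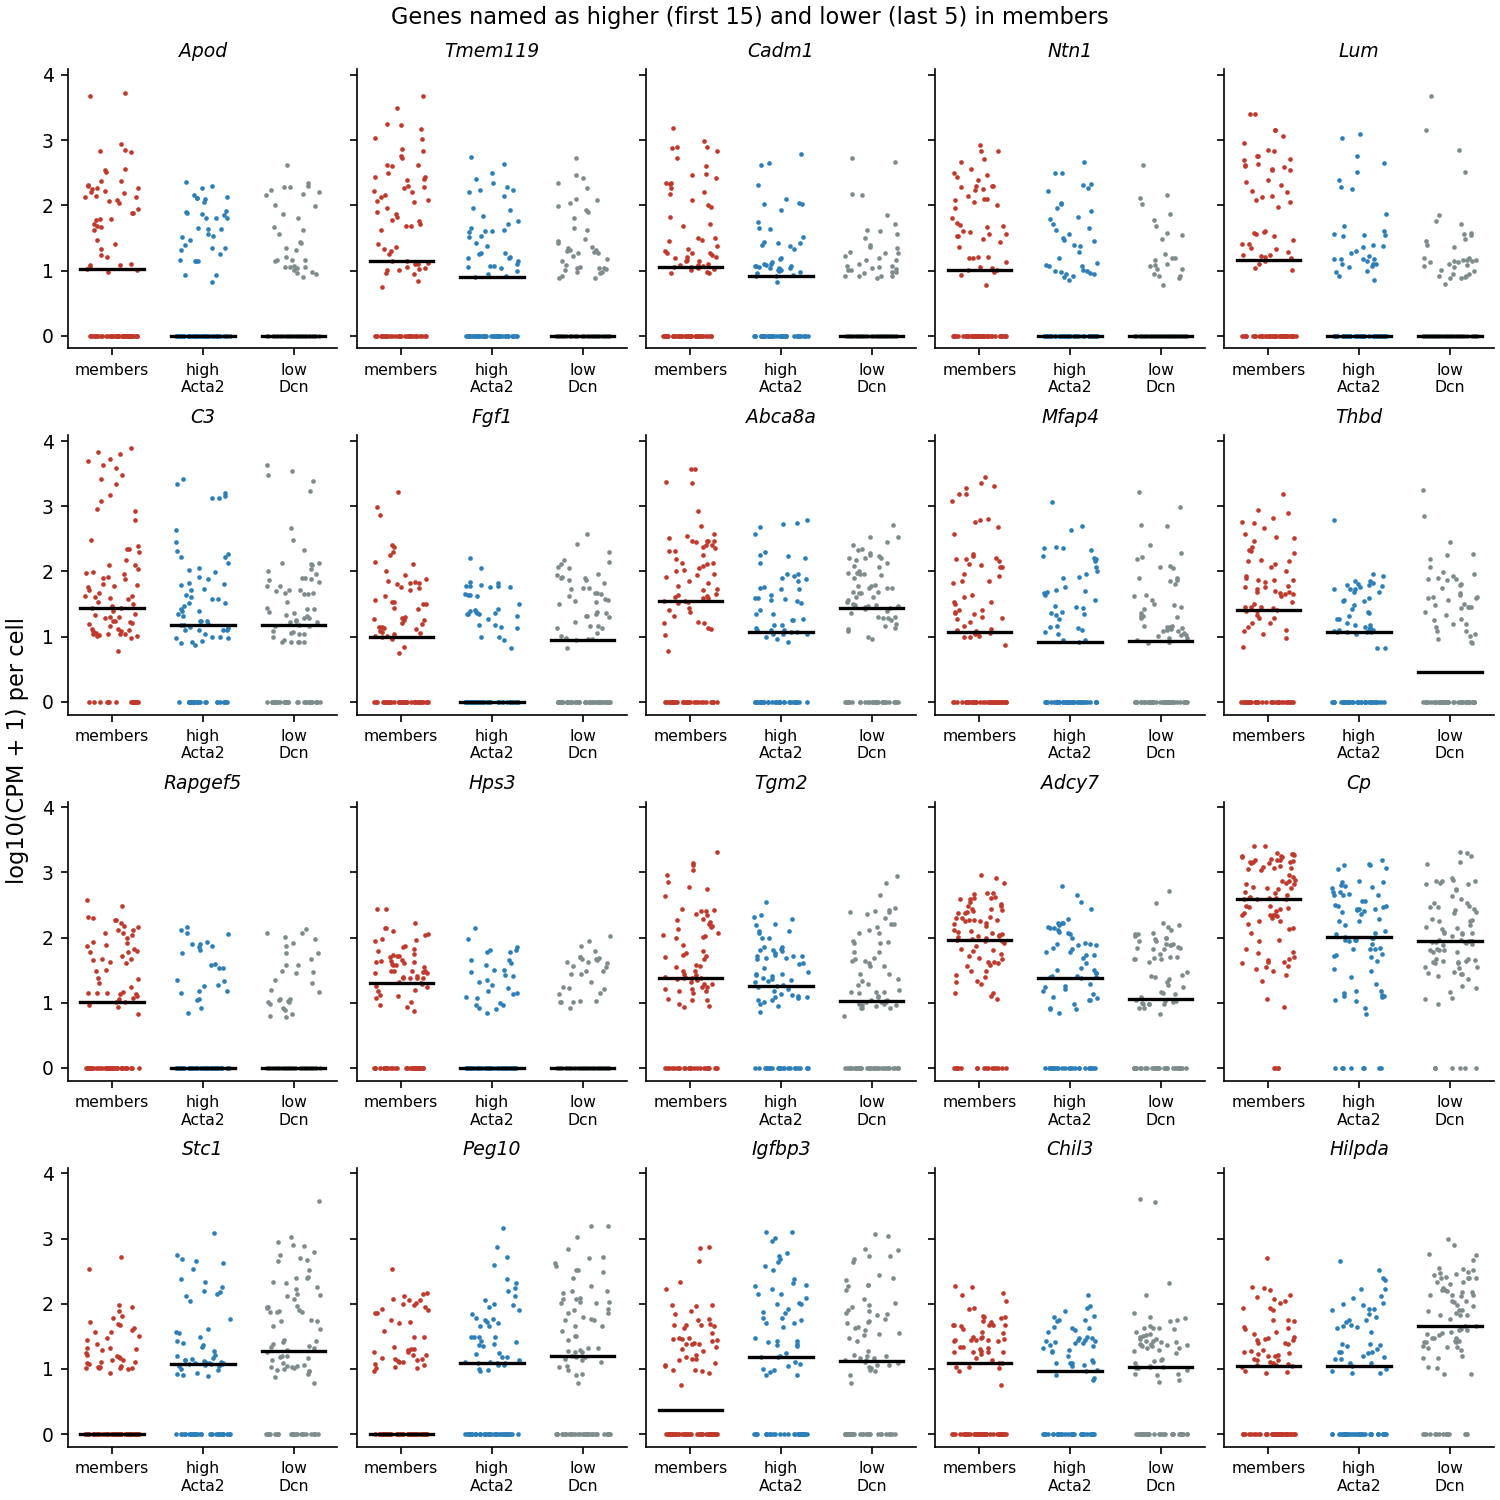
Each panel shows 1 gene, each point is 1 cell, the vertical axis is log10(CPM + 1), and the black line is the median of the 90 Decorin-high cells (red), the 79 high-actin cells (blue) or the 88 Decorin-low cells (grey). Most genes are carried by some cells of each set, whereas the medians of Cp and Adcy7 lie higher in the Decorin-high cells.

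At most 4 genes of any fibroblast or pathway list were past 2-fold in that comparison. Of 10 complement genes used, 8 had a ratio above 1, with a median log2 ratio of 0.49 against -0.05 over all genes, and C3 alone was past 2-fold higher while Masp1, a protease of the lectin branch, was past 2-fold lower. Of 10 Hedgehog receptors and targets, 9 were above 1 (median 0.23), and only Gas1, a coreceptor, was past 2-fold. Of 15 contractile genes left after the selecting gene Acta2 was removed, 14 were below 1 (median -0.22) and none was past 2-fold. Among 12 genes of the insulin-like growth factor axis, Igfbp5 (2.58-fold) and Igfbp6 (7.03-fold) were higher, while Igfbp2 (2.35-fold) and Igfbp3 were lower. Igfbp5 had levels of 1273 and 493 CPM, and its ratio was 1.32 in the stretches low in Sftpc. Igfbp2 did not keep its difference under every setting, with a ratio of 1.26 when the Acta2 limit was 2000 CPM.

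Among 12 markers of adventitial fibroblasts, the cells around large vessels and airways, Pi16, Dpt and Ackr3 were higher and Ly6a was lower. Pi16 reached 100 CPM in 7 of 90 Decorin-high and 0% of the other cells (44.1 against 1.73 CPM, 25.5-fold). Dpt was at 121.99 against 47.6 CPM (2.56-fold, and 1.69-fold outside the stretches low in Sftpc). Ackr3 was 3.13-fold higher, with a ratio of 0.993 in the stretches low in Sftpc. Ly6a was at 2.05 against 18.1 CPM (8.85-fold lower, and 3.84-fold lower without the highest cells). These lists and the genes past 2-fold in them were chosen with values known, and no list is particular to the Decorin-high cells on this evidence.

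Next to the high-actin cells alone, the Decorin-high cells had lower levels of contractile genes that the selection did not use. Of 9631 genes 2.53% were higher and 0.914% lower. Of 18 contractile genes used, 8 were past 2-fold lower and none higher, and their median log2 ratio was -0.67 against -0.01 over all genes. Tagln, an actin-binding protein of smooth muscle, ranged from 0 to 803 CPM with a median of 89.2 in the Decorin-high cells, and from 42.8 to 2419.7 CPM with a median of 437.1 in the high-actin cells. Its level was 178.3 against 615 CPM (3.45-fold lower, ratio 0.290 with a counting interval of 0.273 to 0.307). The ranges overlapped. Myl9 (a myosin light chain), Tpm2 (tropomyosin) and Vcl (vinculin) were 2.65-fold, 2.66-fold and 2.07-fold lower, with medians of 53.9 against 170.5, 16.3 against 95.4 and 200.2 against 448.6 CPM.

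The other contractile genes past 2-fold were confined to few cells of either set. Myh11, smooth muscle myosin, was 2.75-fold lower but reached 100 CPM in 7 of 90 Decorin-high and 13 of 79 high-actin cells, with medians of 0 and 8.94 CPM, and its ratio was 0.503 outside the stretches low in Sftpc. Cnn1, Actg2 and Lmod1 had medians of 0 in both sets, and their levels in the Decorin-high cells were 3.50, 0.844 and 6.51 CPM. The remaining lower genes described were Tnfrsf11b (osteoprotegerin, a decoy receptor, 30.6 against 148.5 CPM, 4.85-fold lower), Igfbp3 (3.46-fold), Stc1 (3.32-fold), Peg10 (2.87-fold) and Macrod2 (2.84-fold). The limit on Acta2 separates these 2 sets of cells, so genes that follow Acta2 from cell to cell differ between them by that choice. At an Acta2 limit of 500 CPM the ratios of Vcl and Lmod1 were 0.520 and 0.521, and at 2000 CPM those of Stc1, Peg10 and Macrod2 were 0.510, 0.513 and 0.548. The summed pericyte and vascular smooth muscle markers were 1496 CPM in the Decorin-high and 2087 CPM in the high-actin cells, and their part was not tested.

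On the higher side, Apod (8.91-fold) and Tmem119 (5.88-fold) again led, followed by Fgf1 (4.50-fold), Thbd (4.14-fold), Abca8a (3.55-fold), Tgm2 (3.47-fold), Cadm1 (3.47-fold) and Pcdhb9, a protocadherin (3.26-fold). Thbd reached 100 CPM in 21 of 90 Decorin-high cells and in 1 of 79 high-actin cells. Apod again depended on the Acta2 limit, with a ratio of 0.778 at 500 CPM. Without the highest cells its ratio was 5.75. Tmem119 and Abca8a were 1.95-fold and 1.99-fold higher within the stretches low in Sftpc, Pcdhb9 1.55-fold at an Acta2 limit of 500 CPM, and Thbd and Tgm2 1.75-fold and 1.86-fold at 2000 CPM.

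The comparison with the 88 Decorin-low cells, which also had little actin, called more genes: of 9800 genes 3.36% were higher and 2.23% lower. The limit on Dcn separates the Decorin-high from the Decorin-low cells, so genes that follow Dcn from cell to cell differ between them by that choice. Which genes do so was not tested. Both insulin-like growth factors were higher. Igf1 ranged from 109.2 to 8165 CPM with a median of 2865 in the Decorin-high cells, and from 21.9 to 5343 CPM with a median of 802 in the Decorin-low cells. Its levels were 3122 and 1108 CPM (2.82-fold), and the ranges overlapped although the medians were far apart. Igf2 had medians of 157.8 and 16.3 CPM, reached 100 CPM in 48 of 90 and 12 of 88 cells, and was 6.27-fold higher. Against all other Pdgfra cells, which include the high-actin cells, neither Igf1 nor Igf2 was past 2-fold. Igfbp5 and Igfbp6 were 2.88-fold and 5.77-fold higher and Igfbp3 2.54-fold lower, although at an Acta2 limit of 2000 CPM the ratio of Igfbp3 was 0.606.

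Of 17 elastic fibre genes used, 6 were past 2-fold higher and 1 lower. Eln (elastin) had medians of 871 and 128.6 CPM and levels of 1462 and 374.9 CPM (3.90-fold). Ltbp1 and Ltbp2, which hold latent growth factors in microfibrils, had medians of 607 against 43.6 and 1803 against 325.5 CPM (2.82-fold and 2.63-fold). Mfap5 had medians of 675 and 75.1 CPM (2.12-fold), and its ratio was below 2 under 4 settings, down to 1.91 outside the stretches low in Sftpc. Mfap4 (2.9997-fold) and Fbln2 (3.20-fold) had medians of 10.7 and 0 CPM in the Decorin-high cells, and the ratio of Fbln2 was 1.26 without cells of high C3. Fbn2 was 2.76-fold lower. The median log2 ratio of the 17 genes was 0.30 against -0.07 over all genes. Next to the high-actin cells, Eln was not past 2-fold, and 2 of the 17 genes were higher and 1 lower.

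Some signalling genes were higher and a few lower than in the Decorin-low cells. Of 17 BMP genes used, 4 were higher and 1 lower (median log2 ratio 0.81), and of 19 FGF, HGF, VEGF and EGF family ligands 6 were higher and 1 lower (median 0.49). Against the high-actin cells the medians of the BMP and ligand lists were 0.06 and 0.07, and against all other Pdgfra cells 0.05 and 0.18. Of the 6 higher ligands, Fgf1, Fgf18, Angpt1, Angpt2 and Ereg were below 2-fold under at least 1 setting, and Fgf10 was not. In the stretches low in Sftpc the ratios of Fgf18 and Ereg were 0.107 and 0.967. The lower genes were Bmp2 (2.13-fold), whose ratio was 1.62 without cells with posterior Hox transcripts, and Pdgfc, a platelet-derived growth factor (5.96-fold), whose ratio was then 0.887. Aspn, a small leucine-rich proteoglycan, was 2.50-fold lower, with a ratio of 2.57 without the highest cells. Lgr6, a receptor for R-spondins, reached 100 CPM in 21 of 90 Decorin-high and 0 of 88 Decorin-low cells (96.1 against 1.89 CPM, 50.8-fold, and 77.1-fold without the highest cells). Bmp7, a bone morphogenetic protein, reached it in 14 and 0 cells (86.4 against 1.33 CPM, 64.8-fold). Both ratios rest on the very low levels of the Decorin-low cells. Among all other Pdgfra cells, which include the high-actin cells, those without high C3 had 16.7 CPM of Lgr6 and 14.2 CPM of Bmp7. Those with high C3 had 38.5 and 5.49 CPM. Bmper, a BMP-binding protein, had medians of 186.7 and 35.9 CPM (2.20-fold), and Bmp3 was 2.05-fold higher. Fgf10, a growth factor for lung epithelium, was at 29.4 against 11.6 CPM (2.54-fold), and Angpt1, an angiopoietin, had medians of 85.9 and 33.6 CPM (2.11-fold). Hhip, a Hedgehog inhibitor, was 2.35-fold higher. Of these, Bmper, Bmp3, Angpt1 and Hhip lay near the limit and were below 2-fold under some settings, down to 1.25 for Bmp3 in the stretches low in Sftpc. Chrdl1, a BMP antagonist, was 11.6-fold higher only through cells with high C3, with a ratio of 0.307 without them.

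Of the genes selected by the naming rule in that comparison, Tnfsf18, a ligand of the tumour necrosis factor family, had the highest ratio. It reached 100 CPM in 28 of 90 and 2 of 88 cells, with medians of 27.5 and 0 CPM and levels of 121.3 and 12.4 CPM (9.74-fold, and 16.1-fold without the highest cells). Apod (9.24-fold), Tmem119 (8.35-fold), Ntn1 (6.92-fold), the water channel gene Aqp1 (6.15-fold), Cadm1 (6.05-fold) and the collagen gene Col8a1 (5.39-fold) followed. The lower genes were Stc1 (6.79-fold), Peg10 (5.12-fold), Chil3 (5.06-fold), Hilpda (4.21-fold), Slc2a3 (3.99-fold), Moxd1 (3.40-fold), Lyz2 (3.40-fold) and Utp14b (3.27-fold). Hilpda had medians of 9.91 and 44.99 CPM and Slc2a3 of 13.3 and 66.4 CPM. Lyz2, a lysozyme of macrophages, reached 100 CPM in 22 of 90 and 22 of 88 cells and had similar medians (48.2 and 46.3 CPM). Its highest Decorin-low cell had 4614 CPM, and the summed immune markers of the Decorin-low cells were 304.6 CPM. Chil3 and Lyz2 lost the call at an Acta2 limit of 500 CPM, with ratios of 1.42 and 0.612. Of the Decorin-low cells, 9 carried posterior Hox or Hand2 transcripts at 100 CPM or more, against 1 of the Decorin-high cells. Without those cells all 16 genes named by the rule stayed past 2-fold.

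**Figure D3:**
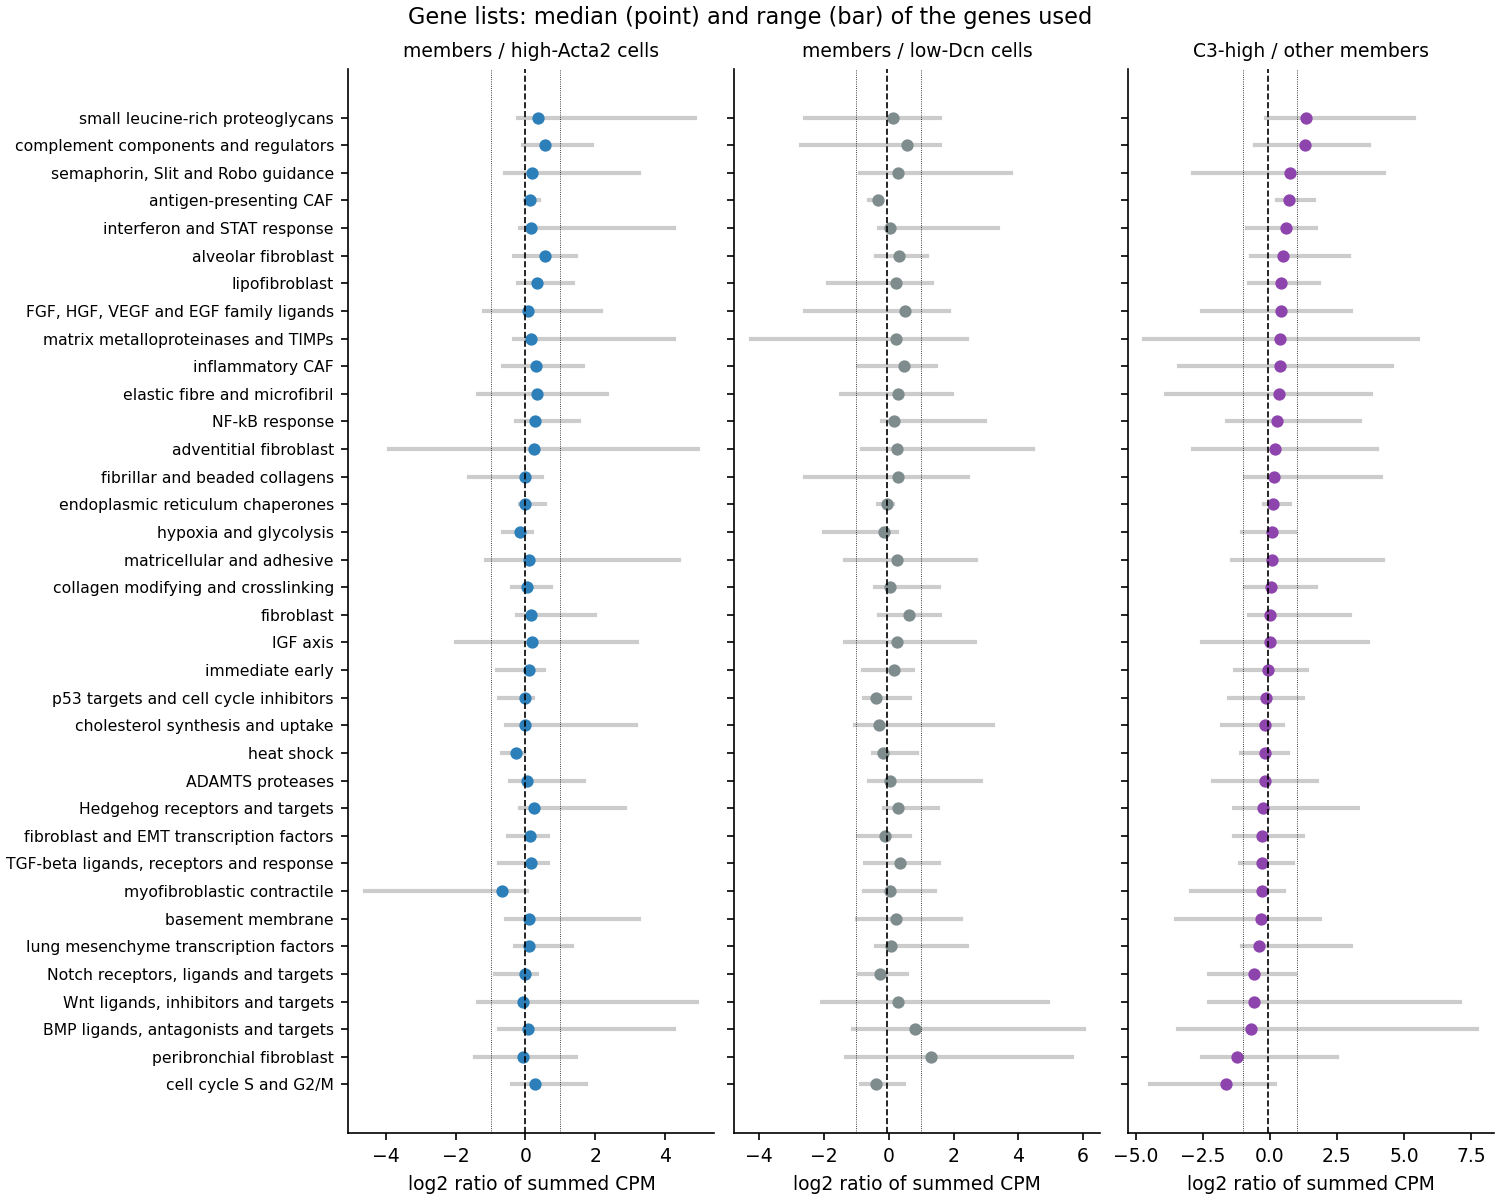
For each fibroblast or pathway list with at least 3 genes used (rows, without the marker lists of other cell types) the point is the median and the grey bar the range of the log2 ratio of summed CPM over the genes used, for Decorin-high against high-actin cells (left), against Decorin-low cells (middle) and for Decorin-high cells with high C3 against the rest (right). The dashed line is the median of all genes and the dotted lines mark 2-fold; of the lists drawn, the contractile list lies lowest on the left at -0.67, and complement and small leucine-rich proteoglycan genes lie highest on the right at 1.30 and 1.36.

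A minority of the Decorin-high cells carried nearly all of their C3. C3 ranged from 0 to 7811 CPM with a median of 26.4, and 15 of 90 cells (16.7%, 9.64 to 26%) had at least 500 CPM. Among the other Pdgfra cells 11 did (6.59%, 3.33 to 11.5%), as did 8 cells with more Rgs5 than Pdgfra (3.94%, 1.72 to 7.62%). The lowest of the 15 had 614 CPM and the next cell 300.2 CPM, so the limit fell in a gap. These 15 cells held 94.2% of the C3 level summed over the Decorin-high cells and 16.5% of all counts of those 90 cells. Without the C3-high cells on both sides, the ratio of C3 against the other Pdgfra cells was 1.16 instead of 3.33. Their median depth was 86294 counts, close to the 89871 of the other 75, and 2 of them lay in the stretches low in Sftpc.

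C3 lies on the minus strand of chromosome 17 (57203970 to 57228136, mouse build GRCm38). The 250 bases before its start in RefSeq (assembly GRCm38.p6, chr17:57228137-57228386, minus strand) are shown because the gene divides these cells. Capitals mark a match to the C/EBP motif TTGCNNAA, which lies 45 bases before the start.
C3: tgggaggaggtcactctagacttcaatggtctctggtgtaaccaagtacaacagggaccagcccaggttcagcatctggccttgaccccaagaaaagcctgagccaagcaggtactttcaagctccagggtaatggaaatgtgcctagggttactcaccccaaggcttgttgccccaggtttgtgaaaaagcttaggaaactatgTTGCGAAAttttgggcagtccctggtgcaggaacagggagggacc
C/EBP factors are known to act on acute-phase genes. The AP-1 motif TGANTCA and an NF-kB motif (GGG, any 2 bases, then TTTCC) had no match in this window, where both strands were searched. The C/EBP motif is in windows of the same length of 10.8% of 27025 genes, the AP-1 motif in 7.82% and the NF-kB motif in 1.65%. Of the 11 genes named below as higher in C3-high cells that have a promoter in the table, Mmp3, Steap4 and Efemp1 hold the C/EBP motif (27.3%), Mmp3 and Efemp1 the AP-1 motif (18.2%) and Steap4 the NF-kB motif (9.09%). A match is a description of the letters and not of binding.

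The 15 C3-high cells differed from the other 75 Decorin-high cells in many genes: of 9740, 590 were higher (6.06%) and 880 lower (9.03%). C3 was left out. With 15 cells a few of them can set a level, so numbers of cells or medians are given. Igfbp6, which binds insulin-like growth factors, reached 100 CPM in more C3-high cells than any other of the 12 higher genes described: its median was 129.5 CPM in the C3-high and 0 in the other cells, 8 of 15 and 3 of 75 cells reached 100 CPM, and the levels were 200.3 and 15.7 CPM (12.7-fold, counting interval 10.2 to 16.04). Efemp1 and Fbln2, both fibulins of elastic fibres, had medians of 62.2 and 46.8 CPM in C3-high cells and 0 in the others (13.6-fold and 13.1-fold). Chil1, a secreted chitinase-like protein, had a median of 62.2 CPM against 0 and was 24.8-fold higher (7.29-fold without the highest cells). Abi3bp, a matrix protein, reached 100 CPM in 6 of 15 and 3 of 75 cells (422.5 against 22.8 CPM, 18.5-fold).

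Steap4 (a metalloreductase, 20.7-fold), Sema3d (a secreted semaphorin, 19.1-fold), Sulf2 (a sulfatase acting on heparan sulfate, 17-fold), Dpep1 (a dipeptidase, 12.6-fold), Gabra3 (16.3-fold) and Npas2 (a clock transcription factor, 16.9-fold) reached 100 CPM in 4 to 7 of the 15 cells. Mmp3, a matrix metalloproteinase, had the highest ratio of the 12 genes (46.2), but it reached 100 CPM in 2 of the 15 cells, at up to 3851 CPM, with a median of 8.30 CPM.

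The lower genes described were also set in part by single cells. Lama1 and Lamc3, laminin chains of basement membranes, had medians of 6.97 and 0 CPM in the C3-high cells against 65.1 and 38.02 CPM, and reached 100 CPM in 1 and 0 of 15 against 35 and 27 of 75 cells. Their levels were 7.78-fold and 18.3-fold lower, and 21.2-fold and 28.3-fold lower without the highest cells. Leaving out the highest cells takes 1 of 15 C3-high cells but 1 of 75 others, which by itself tends to lower a ratio. Sema3c, a semaphorin, had medians of 0 and 109.9 CPM and was 7.21-fold lower. Egfem1 (6.57-fold, and 52.001-fold without the highest cells), the protocadherin Pcdhb3 (8.46-fold and 19.3-fold), the transcription factor Prdm1 (8.15-fold), the calcium-binding S100b (7.07-fold) and the kinase Dyrk2 (6.57-fold) were lower as well. At a C3 limit of 200 CPM Pcdhb3 was no longer past 2-fold, with a ratio of 0.568.

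**Figure D4:**
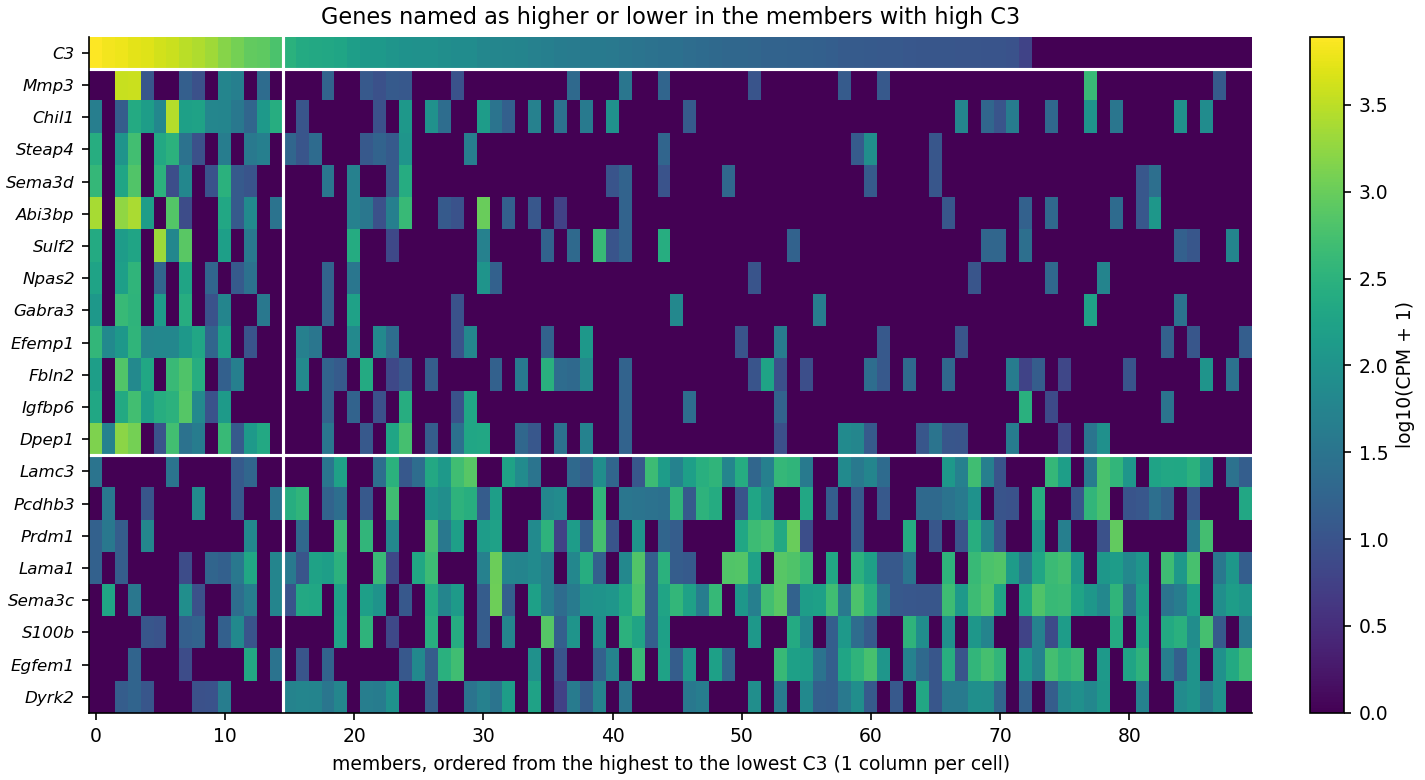
Columns are the 90 Decorin-high cells ordered from the highest to the lowest C3, rows are genes, and colour is log10(CPM + 1); the vertical white line separates the 15 cells with at least 500 CPM of C3, and horizontal lines separate C3, the genes higher in those cells and the genes lower in them. To the left of it Igfbp6 reaches 100 CPM in 8 cells, Efemp1 in 6, Mmp3 in 2 and Lamc3 in 0.

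Other complement genes went with C3. Of 10 used, 7 were past 2-fold higher in the C3-high cells and none was lower, with a median log2 ratio of 1.30 against -0.06 over all genes. C4b, of the classical and lectin branches, had medians of 1194 and 409.4 CPM (2.47-fold). C1ra, a protease of the first component, had medians of 299.5 and 122.5 CPM (2.60-fold). C7 (13.1-fold), the membrane-bound inhibitor Cd55 (4.39-fold), Cfi (2.45-fold) and C6 (2.28-fold) had medians of 0 in both sets, and at a C3 limit of 1000 CPM the ratios of C7 and Cfi were 1.64 and 1.93.

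Marker lists of fibroblast types differed in how their genes lay in the C3-high cells. Of 10 adventitial markers used, 4 were higher and 3 lower: Dpt was at 453.2 against 56.6 CPM (8.01-fold, in 6 of 15 and 8 of 75 cells at 100 CPM), Pi16 15.8-fold, Pcolce2 3.29-fold and the collagen gene Col14a1 3.02-fold higher, while Cd248 (3.03-fold), Sema3c and Ackr3 (3.55-fold) were lower. Of 11 alveolar fibroblast markers, 3 were higher and none lower: Itga8, an integrin chain, had medians of 149.6 and 21.6 CPM (2.98-fold), Inmt of 71.9 and 5.04 CPM (3.29-fold) and Ces1d of 34.9 and 0 CPM (7.73-fold). Of 7 peribronchial markers, 5 were lower, including Hhip (2.49-fold) and Fgf18 (5.73-fold), and 1 was higher.

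Matrix genes were found on both sides. Of 8 small leucine-rich proteoglycans used, 4 were higher (median log2 ratio 1.36): Podn had medians of 222.4 and 15.9 CPM (3.38-fold), and Ecm2, Aspn and Ogn were 5.22-fold, 5.62-fold and 41.98-fold higher. Tnxb, an elastic tenascin, was 7.43-fold higher. Tnc, the tenascin of wounds and tumours, had medians of 244.3 and 1106 CPM and was 2.38-fold lower, and Postn (periostin) was 2.65-fold lower, with medians of 175.4 and 289.95 CPM. Mfap4, with medians of 155.4 and 6.57 CPM, was 6.19-fold higher and Fbn2 14.5-fold lower.

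Secreted signals were also found on both sides. Of 17 BMP genes used, 6 were lower and 2 higher (median log2 ratio -0.71): Bmp3 had medians of 29.9 and 87.8 CPM (2.60-fold lower), Bmp6 of 0 and 28.5 CPM (3.81-fold lower), and the activin antagonist Fst of 91.3 and 171.2 CPM (2.79-fold lower, with a ratio of 0.578 at a C3 limit of 200 CPM). Of 13 genes of inflammatory CAFs, 4 were higher and 3 lower. Il33, an alarmin, was 23.4-fold higher through 2 of 15 cells at 100 CPM, Has1 7.23-fold through 1 (13.5-fold and 2.12-fold without the highest cells), and Ptgs2, a prostaglandin synthase, 3.17-fold with medians of 81.9 and 54.96 CPM. Il6 was 3.32-fold higher, but its ratio was 0.549 without the highest cell of each set. Saa3, Has2 and Lif were lower (10.4-fold, 2.92-fold and 2.57-fold), and the ratio of Has2 was 0.594 in cells thinned to equal depth. Of 14 interferon response genes 13 had a ratio above 1 and 4 were past 2-fold, of which Ifit3 and Stat2 were not without the highest cells (1.06 and 1.75).

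Of 13 cell cycle genes used, 8 were lower in the C3-high cells and none higher (median log2 ratio -1.62), but the median was 0.66 at a C3 limit of 200 CPM. None of the 15 cells had 100 CPM of Mki67 and Top2a together, which allows a share of up to 21.8%, against 3 of the other 75 Decorin-high cells (4%). Among all Decorin-high cells 3 of 90 did (3.33%, 0.693 to 9.43%), and among the other Pdgfra cells 15 (8.98%, 5.11 to 14.4%).

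The C3-high cells also held much of some genes that were higher in Decorin-high than in other Pdgfra cells. They held 59.4% of the Abca8a counts of the Decorin-high cells, 55.01% of Mfap4, 52.3% of Rapgef5, 43.8% of Fgf1, 41.8% of Tgm2 and 61.3% of Dpt, against 16.5% of all counts. They held 5.38% of Apod, 7.81% of Tmem119, 3.34% of Cadm1 and 3.29% of Igf2. Without the C3-high cells Abca8a and Rapgef5 were 1.82 and 1.84-fold higher than in the other Pdgfra cells, while 24 of the 27 genes described in that comparison stayed past 2-fold. Apod, Tmem119, Cadm1 and Igf2 were thus held mainly by Decorin-high cells without high C3. Unlike the other 3 genes, Igf2 was not past 2-fold higher than in the other Pdgfra cells.

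The same genes could be read in cells that did not enter the set. Among the other Pdgfra cells, the 11 with at least 500 CPM of C3 were compared with the rest, and of 9651 genes 529 were higher (5.48%) and 1293 lower (13.4%). With 11 cells a few of them can set a level here as well, and only ratios of summed levels are given. Chil1 (10.5-fold), Fbln2 (8.15-fold), Abi3bp (7.11-fold) and Efemp1 (6.89-fold) were higher there too, as were Dpt (22.7-fold), Mfap4 (15.3-fold), Itga8 (3.16-fold) and Inmt (4.31-fold). Igfbp6 (6.87-fold) and Steap4 (4.26-fold, from 6 counts in the 11 cells) also had higher levels. Both were below 10 CPM over the cells compared and so are not among the 9651 genes. Complement genes were higher in both settings: 6 of 9 used were past 2-fold outside the set (median log2 ratio 1.35), including C1ra (3.29-fold) and C4b (2.71-fold). Of the 8 lower genes, Lama1, Egfem1, Lamc3 and Sema3c had ratios of 0.0923, 0.0914, 0.282 and 0.290. The other 4 were not past 2-fold lower, with 0.639 for Pcdhb3, 0.538 for Prdm1, 0.905 for S100b and 1.49 for Dyrk2.

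Other genes were not higher, or not lower, in the C3-high cells outside the set. Mmp3 and Sulf2 had 1 count each in the 11 cells, Sema3d had 2 and Gabra3 had 3. Dpep1 had a ratio of 0.245 and Npas2 of 0.957, and Pi16 had 1 count in the 11 cells. Tnc (1.18), Postn (0.924) and Lif (2.58) were not lower there, and Has2 and Saa3 were 4.55-fold and 11.6-fold higher. Fbn2 (1.24) was not lower either, and Ptgs2 (0.226), Il33 (0.430), Ecm2 (0.700), Aspn (0.876) and Col14a1 (0.925) were not higher. Ogn (6.32-fold), Podn (2.82-fold), Tnxb (2.13-fold) and Ces1d (18.3-fold) were higher there too. Further list genes, not given here, lay on both sides. The difference between the ratios outside and inside the set was not tested.

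**Figure D5:**
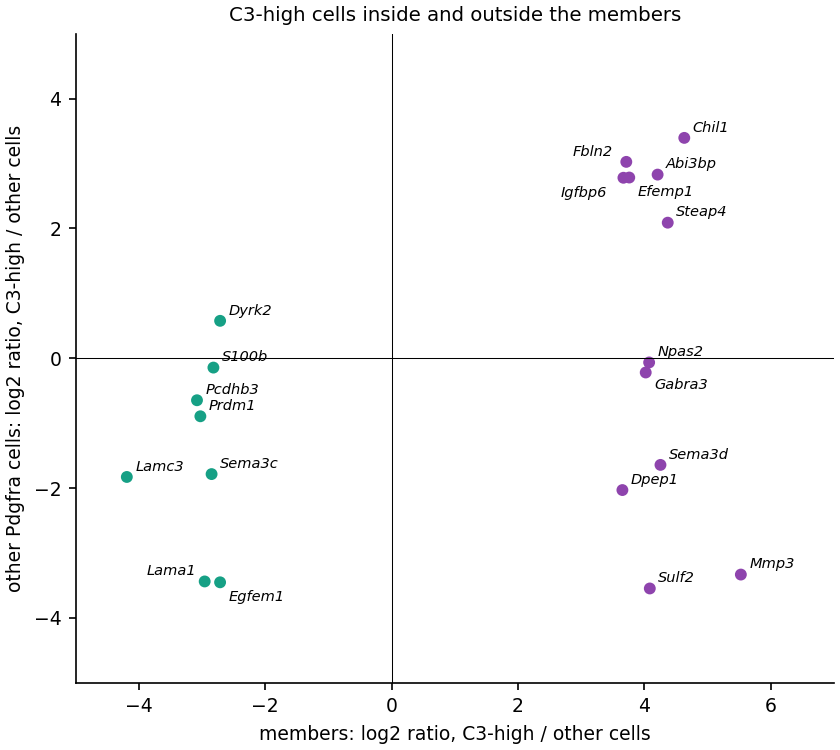
Each point is 1 gene named for the C3-high cells, with the log2 ratio of C3-high over other cells among the Decorin-high cells (horizontal axis, 15 against 75 cells) and among the other Pdgfra cells (vertical axis, 11 cells against the rest); purple genes are higher and green genes lower in C3-high members. Chil1, Fbln2, Abi3bp, Efemp1, Igfbp6 and Steap4 lie above 0 on both axes, and Mmp3 and Sulf2, with 1 count each in the 11 cells, lie far below 0 on the vertical axis.

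Across the 90 Decorin-high cells, the genes whose rank followed that of C3 most closely were Cped1 (Spearman rho 0.53), Pcolce (0.49) and Mfap4 (0.47), followed by Gpc3 (0.47), Heg1 (0.47) and Serping1, a complement inhibitor (0.45). Among pairs of genes described for the Decorin-high cells, Rapgef5 and Cp (0.47), C3 and Mfap4 (0.47) and Tmem119 and Lum (0.46) had the highest rho, and Rapgef5 and Fbn2 the lowest (-0.33). With cells thinned to equal depth the rho of C3 and Mfap4 was 0.56 over 82 cells. These are descriptions over 90 cells of 1 table that differ in depth and whose animals are not named.

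The genes that varied most from cell to cell beyond their level were each high in few Decorin-high cells. They were Sfrp4 (2 of 90 cells at 100 CPM), Spp1 (6), Mmp3 (3), Apod (25), Cyp2b10 (1), Dio2 (2), Comp (1), Gdf10 (12), Il1rl1 (2) and Mki67 (3). Apod and Gdf10, a member of the TGF-beta family, were the only ones carried by more than 10 cells. The 9 highest cells held 98.9% of the Sfrp4 level, 80.5% of Apod and 90.8% of Gdf10.

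Markers of other cell types gave the background of these levels. The 12 pericyte and vascular smooth muscle markers summed to 1496 CPM in the Decorin-high cells (327.2 to 6005 CPM over the cells), 2094 CPM in the other Pdgfra cells and 10559.6 CPM in the cells with more Rgs5 than Pdgfra. The 14 epithelial markers summed to 1037 and 959 CPM in the Decorin-high and other Pdgfra cells, and to 1498 CPM in the C3-high against 946 CPM in the other Decorin-high cells, with ranges of 0 to 5701 and 0 to 5957 CPM. The 7 neural markers summed to 212.7 and 77.2 CPM and the 8 mesothelial markers to 103.8 and 68.3 CPM in those same 2 sets, with Sox10, Gfap and Calb2 at 0 in both. The immune markers summed to 100.9 and 95.7 CPM in them. The part of epithelial or neural transcripts in the C3-high results was not tested.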

How the data were processed

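Single-cell RNA-seq of 460 cells gave the deposited table of raw molecular barcode counts for 48440 genes. Per the submitters' processing notes the authors used STAR, HTSeq and build mm10, and how reads became barcode counts is not given in the sources used here. Per the labels all cells are 1 group, and no animal or culture is named. Of the cells 257 had at least as many Pdgfra as Rgs5 counts (90 members, 167 others) and 203 had more Rgs5. All columns were used, with no filter on cells and no doublet caller. Cells hold 25029 to 240496 counts (median 88701).

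CPM were computed per cell and for summed counts of each set of cells, with Python 3.11.15, numpy 2.4.6, scipy 1.17.1 and pandas 2.3.3, and the ratios were tested on simulated data. Genes with at least 10 CPM over the cells compared were used. Levels have exact Poisson and shares exact binomial 95% intervals. Named genes had at least 30 CPM and a count in at least 50% of cells of the higher set, except for the C3 comparison the same side past 1.5-fold inside and outside the columns low in Sftpc (over 50% of the 20 nearest columns under 30 CPM, 127 of the 460 cells), and the most extreme ratios: 15 higher and 12 lower, 8 and 8, 8 and 8, and 12 and 8 in the 4 comparisons. Genes past 2-fold in the lists, and other list genes, were chosen after their values were seen. The rule for the cells, the lists and the named comparisons were chosen with earlier results of these data known. Alternatives changed the limits, gene filter, scaling, depth (cells thinned to 56586 counts, which leaves out 46 cells and moves the share of cells at 100 CPM by at most 6.82 percentage points over the named genes) and cells. The Sftpc columns were split by position in the table, whose order the labels do not explain. Of the deposited gene identifiers 48058 matched GENCODE vM21, from which gene positions come. Genes that share reads with close copies, such as the protocadherin and histocompatibility families, are uncertain. The strain's full name and 2 of the list genes are not reported here.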

Additional observations from a re-analysis of the deposited data

How the results depend on the processing

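The Decorin-high cells were 14.8% of all cells at an Acta2 limit of 500 CPM, 26.96% at 2000 CPM and 14.2% within the stretches low in Sftpc. The shares of genes past 2-fold depended on the gene filter and on the stretch. Against the other Pdgfra cells 5.70% were higher and 5.45% lower with genes from 1 CPM, 0.910% and 0.551% from 50 CPM, 5.29% and 7.99% within the stretches low in Sftpc, and 2.07% lower at an Acta2 limit of 500 CPM. Against the high-actin cells the shares were 9.10% and 4.12%, 0.922% and 0.558%, and 8.84% and 6.65% in the same order, with 1.99% lower at 500 CPM of Acta2, and 6.01% higher and 1.63% lower at 2000 CPM. Against the Decorin-low cells they were 8.10% and 7.31%, 2.16% and 1.14%, and 7.43% and 10.47%. Between C3-high and other Decorin-high cells 12.04% were higher from 1 CPM, 2.70% higher and 4.41% lower from 50 CPM, and 16.95% lower when each set lost its highest cell of the gene, an alternative chosen after seeing the data, as was leaving out C3-high cells. Losing the highest cell takes 1 of 15 C3-high cells but 1 of 75 others, which by itself tends to lower a ratio. How much of the change this makes, and the cause of the other changes, was not tested. For the C3 comparison the shares were not computed within the stretches low in Sftpc, which hold 2 C3-high and 16 other Decorin-high cells. The 20 genes named there kept their side in them, but Dpep1 and Prdm1 were not past 2-fold, with ratios of 1.44 and 0.731.

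Of the 6799 values recomputed under 17 alternatives, 4794 stayed close to the main value, 1984 moved and 21 changed sides. The log2 ratios on the other side were, against the other Pdgfra cells, Ackr3 -0.0101, Omd 1.65, Col6a5 2.48 and Gata6 -0.35 within the stretches low in Sftpc, Hand2 1.33 without cells with posterior Hox transcripts, Omd 5.16 at a Dcn limit of 300 CPM and 1.74 without the highest cells, Igfbp2 0.34 at an Acta2 limit of 2000 CPM, and Mmp3 -0.14 and Ncam1 -2.04 without C3-high cells. Against the high-actin cells Apod was -0.36 at an Acta2 limit of 500 CPM. Against the Decorin-low cells they were Fgf18 -3.22, Ereg -0.0482 and Myh11 -1.03 within the stretches low in Sftpc, Bmp2 0.70 without cells with posterior Hox transcripts, Aspn 3.19 at a Dcn limit of 300 CPM and 1.36 without the highest cells, Chil3 0.51 at an Acta2 limit of 500 CPM and Chrdl1 -1.70 without C3-high cells. Between C3-high and other Decorin-high cells Il6 was -0.87 and Lgr5 1.45 without the highest cells. Depth limits single cells: at the median depth of the Decorin-high cells 1 count is 11.2 CPM. No paired analysis was possible because no result comes from a test and there is 1 group.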

Other observations

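Some other gene groups of the Decorin-high cells were not described above. Of 14 semaphorin, Slit and Robo guidance genes used, 3 were past 2-fold higher than in the other Pdgfra cells and none was lower (median log2 ratio 0.29 against -0.05 over all genes). They were Ntn1, Sema3d and Sema3e. Sema3d and Sema3e, secreted semaphorins, each reached 100 CPM in 6 of 90 Decorin-high cells, and in 0.599% and 1.80% of the others. Sema3d was at 110.4 CPM in the C3-high and 5.77 CPM in the other Decorin-high cells. The latter is close to the 5.72 CPM of the other Pdgfra cells without high C3. Of 17 basement membrane genes, Col4a3, Col4a4 and Lama3 were past 2-fold higher and none was lower (median 0.14). Over all genes used in that comparison 1.87% were higher and 1.34% lower. Col4a4, a chain of type IV collagen, was at 40.4 against 6.86 CPM and reached 100 CPM in 5 of 90 cells. Inmt, a methyltransferase used as a marker of alveolar fibroblasts, was at 147.8 against 59.9 CPM, and 16 of 90 Decorin-high cells reached 100 CPM against 8.98% of the others.

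Other lists held no gene past 2-fold. None of 14 TGF-beta ligands, receptors and response genes was (median log2 ratio 0.29), and none of 11 inflammatory CAF genes (0.28), or 20 immediate early genes (0.12). All 11 heat shock genes had a ratio below 1 against the high-actin cells, and none was past 2-fold (median -0.27). Against the Decorin-low cells 11 of 13 cell cycle genes had a ratio below 1 and none was past 2-fold (median -0.40, and 0.34 outside the stretches low in Sftpc).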
